A study of Mus musculus with 25 samples.

Results

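The 47 genes described here encode the Fc receptors for immunoglobulin, the Siglec, TREM, CD300, SIRP, PILR and PIR/LILR receptor families and the adaptors Tyrobp and Hcst. They were chosen by symbol, as every row of a table of 25006 entries whose symbol begins with one of the family names, or equals that of either adaptor. RNA was sequenced from preparations labelled as enriched CD8+ T cells out of tumours grown in C57BL/6 mice from E0771, a mouse mammary carcinoma line. The 3 anti-CD73 libraries came from mice given an antibody against CD73, the adenosine-forming enzyme encoded by Nt5e, every 3 days, and the 3 control libraries from mice labelled as controls, with no agent or isotype named. Ages, the number of mice per library and whether replicates are separate animals are not stated in the labels, so p-values measure only the spread between these libraries, which may be technical. The other 19 of 25 samples, all of spleen CD8+ T cells in culture, were not analysed here.

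These receptors sit mainly on macrophages, monocytes, granulocytes and dendritic cells, and many come as pairs that bind like ligands and signal in opposite ways. Activating members have short tails and lean on an adaptor with an ITAM (immunoreceptor tyrosine-based activation motif), either Tyrobp, also called DAP12, or the Fc receptor gamma chain encoded by Fcer1g, which recruits the kinase Syk. Inhibitory members carry an ITIM, an inhibitory tyrosine motif of their own, which recruits the phosphatases encoded by Ptpn6 (SHP1) or Inpp5d (SHIP1). In tumours, antibodies act on myeloid cells through the IgG Fc receptors, and Sirpa binds Cd47, the "don't eat me" signal of tumour cells.

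By textbook role, 3 members were classed as adaptors (Tyrobp, Hcst and Fcer1g), 24 as activating, 11 as inhibitory and 5 as other (a transporter, adhesion receptors and the like), and 4 CD300 members were left unclassified. A mean of at least 10 normalized counts over the 6 libraries was asked for in the test. This was met by 36 members: all 3 adaptors, 21 activating, 8 inhibitory, 3 other and 1 unclassified. The 11 members under it had at most 10 reads in any library.

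Libraries held between 10180624 and 17161679 reads in genes. Markers of the labelled cell type were present at a low share: the 7 T cell genes found in the table, of 8 listed, took 0.00198 to 0.00361% of the reads of the anti-CD73 libraries and 0.000855 to 0.00371% of those of the controls. Cd8a stood at 90.2, 82.6 and 35.0 normalized counts in anti-CD73 replicates 1, 2 and 3, against 122, 7.60 and 24.7 in control replicates 1, 2 and 3, so control replicate 1 was the highest and control replicate 2 the lowest. The 14 macrophage and monocyte genes took 0.145 to 0.235% of the reads of the anti-CD73 libraries and 0.0803 to 0.152% of those of the controls, the 9 neutrophil genes 0.0692 to 0.123% of the reads of the anti-CD73 libraries and 0.0448 to 0.0611% of those of the controls, and none of either list was at 0 in every library. The 47 receptor and adaptor genes together took 0.148, 0.174 and 0.0978% of the reads of anti-CD73 replicates 1, 2 and 3, against 0.0989, 0.0607 and 0.0483% of those of control replicates 1, 2 and 3. Both myeloid lists lay higher on average after anti-CD73, as the receptors did. The ranges of the 2 groups overlapped for the macrophage and monocyte list and for the receptor total. Of the tested neutrophil genes 6 lay higher and 2 lower, Ly6g (log2 fold change -0.035) and Ngp (-0.0017). Camp was too low for the test, with means of 4.19 after anti-CD73 and 6.55 in controls. The part of both lists in the receptor values was not tested. In such bulk material, more cells of a type and more RNA per cell cannot be told apart. Control replicate 1 stood apart from the other controls: it lay above both of them for 33 of the 36 tested members, against 45.1% of all tested genes. Nt5e itself stood at 100.4, 58.2 and 69.9 normalized counts in anti-CD73 replicates 1, 2 and 3, against 92.4, 55.7 and 67.4 in control replicates 1, 2 and 3, and these groups overlapped; an antibody against the protein need not alter its transcript.

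The promoter windows of 4 IgG Fc receptor genes and of Cd300lf, the member with the smallest p, are shown because a motif of the myeloid factor PU.1 recurs in the family. Each runs from 250 bases before to 50 after a start in RefSeq (GRCm38.p6, the assembly of mm10), 5′ to 3′ on the gene's strand. Capitals mark GAGGAAG or its reverse complement, the letters searched for here as the PU.1 core.
Fcgr1, chr3:96293920-96294219, minus strand: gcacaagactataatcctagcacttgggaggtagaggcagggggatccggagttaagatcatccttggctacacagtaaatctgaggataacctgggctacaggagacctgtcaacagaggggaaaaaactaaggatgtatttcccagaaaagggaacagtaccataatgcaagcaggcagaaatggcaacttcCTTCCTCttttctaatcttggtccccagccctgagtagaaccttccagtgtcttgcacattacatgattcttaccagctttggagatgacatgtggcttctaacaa
Fcgr2b, chr1:170976022-170976321, minus strand: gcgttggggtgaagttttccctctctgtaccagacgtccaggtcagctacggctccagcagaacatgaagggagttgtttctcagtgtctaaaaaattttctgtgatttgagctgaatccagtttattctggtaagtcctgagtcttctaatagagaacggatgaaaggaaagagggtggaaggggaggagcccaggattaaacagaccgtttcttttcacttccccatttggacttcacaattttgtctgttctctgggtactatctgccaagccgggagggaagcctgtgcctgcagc
Fcgr3, chr1:171059354-171059653, minus strand: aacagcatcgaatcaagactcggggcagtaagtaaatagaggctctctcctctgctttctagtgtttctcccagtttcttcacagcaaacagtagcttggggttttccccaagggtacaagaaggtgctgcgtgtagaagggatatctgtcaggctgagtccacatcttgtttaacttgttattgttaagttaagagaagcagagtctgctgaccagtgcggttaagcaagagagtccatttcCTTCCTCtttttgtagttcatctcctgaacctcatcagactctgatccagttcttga
Fcgr4, chr1:171018676-171018975, plus strand: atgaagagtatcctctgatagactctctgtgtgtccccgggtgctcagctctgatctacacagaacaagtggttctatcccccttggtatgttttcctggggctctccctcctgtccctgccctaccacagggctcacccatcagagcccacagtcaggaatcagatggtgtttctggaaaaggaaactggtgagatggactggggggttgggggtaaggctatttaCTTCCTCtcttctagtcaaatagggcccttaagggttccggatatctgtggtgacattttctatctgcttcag
Cd300lf, chr11:115133943-115134242, minus strand: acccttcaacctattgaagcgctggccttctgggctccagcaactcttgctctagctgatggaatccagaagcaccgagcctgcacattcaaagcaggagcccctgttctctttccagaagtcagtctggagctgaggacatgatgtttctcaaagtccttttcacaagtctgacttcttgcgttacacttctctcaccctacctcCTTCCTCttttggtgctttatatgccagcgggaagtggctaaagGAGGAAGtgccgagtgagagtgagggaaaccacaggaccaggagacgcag

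The 3 activating genes Fcgr1, Fcgr3 and Fcgr4 each held 1 match on the reverse strand, beginning 56, 7 and 23 bases before the start. Fcgr3 has another start in RefSeq, not shown, and the same match begins 16 bases before it. Cd300lf held 2, at 44 bases before the start and at the start itself. The window of the inhibitory gene Fcgr2b held none, which says only that these letters are not in it. Over all members with a window (37 of 47, with 41 windows), 19 windows or 46.3% held the motif, against 13.6% of all 32851 windows. C/EBP letters (TTGCNNAA, both strands) were in 11 of the 41 member windows, or 26.8%, against 10.8% of all windows. Letters of an interferon response element (GAAA, 2 bases of any kind, then GAAA, both strands) were in 8, or 19.5%, against 3.44%. Windows of recent gene copies are not independent of each other. Those of Cd300ld4 and Cd300ld5 were equal at 300 of 300 bases, and those of Pilrb1 and Pilrb2 at 292 of 300. A match is a description of letters and not evidence of binding.

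All 36 tested members lay higher after anti-CD73 on average, against 50.5% of all 12262 tested genes, and none passed the test over all of them. A higher average for every tested gene was not particular to the receptors. It was also found for the 14 macrophage and monocyte genes and the 6 dendritic cell genes. The same held for 6 mast cell and basophil, 7 T cell and 4 endothelial genes. In these last lists control replicate 1 lay above the anti-CD73 range for 4 mast cell and basophil, 4 T cell and 1 endothelial gene. The neutrophil list had 6 higher and 2 lower, and all 5 tested erythroid genes lay lower. The median log2 fold change of the members, on the log2(normalized count + 1) scale, was 0.99 (a fold of 1.99), against 0.0039 for all tested genes. In what follows, SE is the standard error of a log2 fold change, with n = 3 libraries per group. A fold of at least 2 upwards was found for 17 members, against 3.96% of all genes. By limma, 0% of all genes had an adjusted p under 0.05 (0 genes, and 0 of 36 members), and edgeR's quasi-likelihood test on recovered reads also called 0 of either. At an unadjusted p under 0.05, 20 members lay higher and 0 lower, a share to be read beside 8.69% of all genes that lay higher. Groups that did not overlap, with all anti-CD73 libraries above all controls, were found for 12 of the 36 members, against 11.5% of all genes. DESeq2 on the recovered reads called 8 members, all higher, against 2.99% of the genes to which it gave an adjusted p.

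The number of calls turned on a single library. Without control replicate 1, limma called 26 members, all higher, against 11.9% of all genes called higher and 10.3% called lower, and the members' median was 1.36. edgeR and DESeq2 without that library called the same 26 members, an alternative chosen after the data were seen. Leaving out any other single library left limma at 0 member calls. The heat map of the 36 members shows how control replicate 1 sides with one group for some members and with the other for others.

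**Figure D1:**
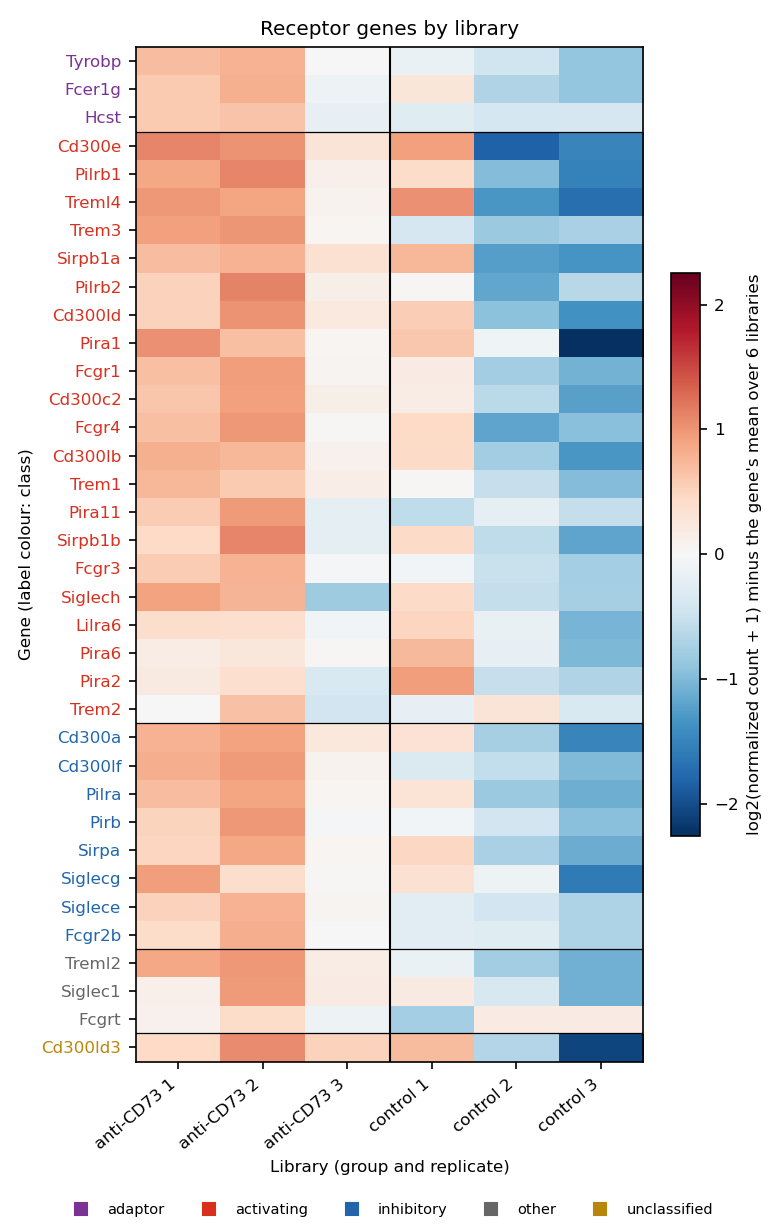
Each row is a tested gene and each column a library, with anti-CD73 replicates left of the line and controls right of it. Colour gives log2(normalized count + 1) minus the gene's mean over the 6 libraries, and label colour the class. Control replicate 1 is red for Cd300e and Treml4, at 169 and 101 normalized counts, and blue for Trem3 and Pira11, at 40.6 and 29.4.

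Among the adaptors, Tyrobp and Hcst had groups that did not overlap and Fcer1g did not. Tyrobp encodes DAP12, the ITAM chain of the TREM, SIRP-beta and several CD300 receptors, and stood at 1706, 1817 and 1044 normalized counts in anti-CD73 replicates 1, 2 and 3, against 944, 772 and 574 in control replicates 1, 2 and 3. All 3 anti-CD73 libraries lay above all controls, though anti-CD73 replicate 3 was close to control replicate 1 (log2 fold change 0.98, SE 0.26; limma adjusted p = 0.178). Fcer1g encodes the gamma chain shared by the activating Fc receptors and stood at 2140.4, 2492 and 1320.3 normalized counts in anti-CD73 replicates 1, 2 and 3, against 1723, 892 and 781 in control replicates 1, 2 and 3. Here control replicate 1 lay inside the anti-CD73 range, and the groups overlapped (log2 fold change 0.85, SE 0.34, limma adjusted p = 0.3). Hcst encodes DAP10, an adaptor that signals through phosphoinositide 3-kinase in NK and T cells as well as myeloid cells, and was low, at 28.8, 29.6 and 16.5 normalized counts in anti-CD73 replicates 1, 2 and 3, against 15.2, 13.9 and 14.2 in control replicates 1, 2 and 3. The groups did not overlap, but anti-CD73 replicate 3 lay close to all 3 controls (log2 fold change 0.70, SE 0.33, limma adjusted p = 0.36). Without control replicate 1, Tyrobp (1.15, adjusted p = 0.00909) and Fcer1g (1.20, adjusted p = 0.00757) passed and Hcst (0.74, adjusted p = 0.183) did not.

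The IgG Fc receptors lay higher on both the activating and the inhibitory side. Fcgr1 encodes the high-affinity activating receptor CD64 and stood at 2245, 2719 and 1479.7 normalized counts in anti-CD73 replicates 1, 2 and 3, against 1597, 815 and 669.8 in control replicates 1, 2 and 3. Control replicate 1 reached the lower end of the anti-CD73 range (log2 fold change 1.12, SE 0.35, limma adjusted p = 0.208). Fcgr3, the low-affinity activating receptor CD16, stood at 1248, 1452 and 813 normalized counts in anti-CD73 replicates 1, 2 and 3, against 805, 594 and 494 in control replicates 1, 2 and 3. The groups were apart only by the small gap between anti-CD73 replicate 3 and control replicate 1 (log2 fold change 0.88, SE 0.26, limma adjusted p = 0.193). Fcgr4, the activating receptor CD16-2 of monocytes and neutrophils, stood at 915, 1127 and 579 normalized counts in anti-CD73 replicates 1, 2 and 3, against 782, 251 and 297 in control replicates 1, 2 and 3. Control replicate 1 was well inside the anti-CD73 range and far above control replicates 2 and 3 (log2 fold change 1.12, SE 0.44, limma adjusted p = 0.293).

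Fcgr2b is the only inhibitory IgG Fc receptor of the mouse and stood at 953, 1269 and 724 normalized counts in anti-CD73 replicates 1, 2 and 3, against 603, 592 and 442 in control replicates 1, 2 and 3. Its groups did not overlap, and control replicate 1 was level with control replicate 2 (log2 fold change 0.82, SE 0.23, limma adjusted p = 0.183). Fcgrt encodes the neonatal Fc receptor, which carries IgG through cells and is not limited to myeloid cells. It stood at 346, 431 and 300.3 normalized counts in anti-CD73 replicates 1, 2 and 3, against 189.9, 369 and 368 in control replicates 1, 2 and 3. It broke the family pattern: control replicate 1 was the lowest library, control replicates 2 and 3 lay inside the anti-CD73 range, and the log2 fold change of 0.26, SE 0.28 (limma adjusted p = 0.692) turned to -0.053 without control replicate 1.

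**Figure D2:**
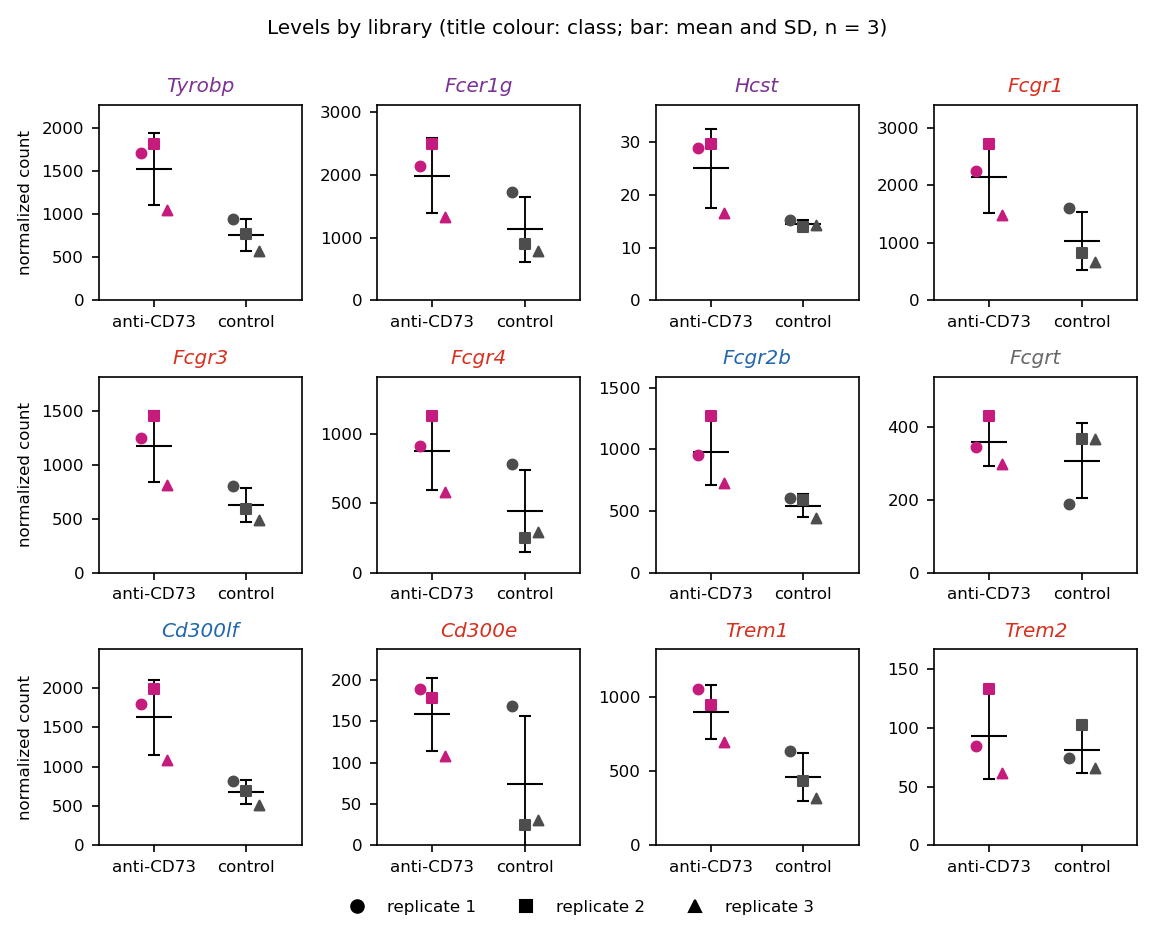
Normalized counts of 12 genes in each library, anti-CD73 left and controls right, with the mean and SD of 3 libraries as bars; every axis starts at 0, which cuts the control bar of Cd300e. Cd300lf is higher in every anti-CD73 library, from 1084, than in any control, up to 812, whereas the groups of Trem2 and Fcgrt overlap.

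The IgE receptors gave few reads. Fcer1a, the alpha chain of the high-affinity receptor of mast cells and basophils, had 5, 1 and 1 reads in anti-CD73 replicates 1, 2 and 3 and 10, 2 and 3 in the controls. Fcer2a, which encodes CD23, the low-affinity IgE receptor of B cells, had 5, 5 and 2 reads in the anti-CD73 libraries and 5, 5 and 4 in the controls. Neither was tested, so no difference was assessed for them.

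Of the TREM family, Trem1, Trem3 and Treml2 lay above the controls in every anti-CD73 library, and Trem2 did not. Trem1 amplifies inflammatory responses of neutrophils and monocytes through Tyrobp. It stood at 1057, 946 and 698 normalized counts in anti-CD73 replicates 1, 2 and 3, against 636, 436 and 317 in control replicates 1, 2 and 3. Its groups were apart, with a log2 fold change of 1.00, SE 0.27 (limma adjusted p = 0.18). Trem3, a Tyrobp-coupled gene of the same cluster in the mouse, stood at 102, 107 and 54.5 normalized counts in anti-CD73 replicates 1, 2 and 3, against 40.6, 29.1 and 31.4 in control replicates 1, 2 and 3. Control replicate 1 was near the other controls here (log2 fold change 1.31, SE 0.32, limma adjusted p = 0.166). Treml2, found on neutrophils, macrophages and B cells, stood at 232, 249.9 and 142 normalized counts in anti-CD73 replicates 1, 2 and 3, against 115, 73.5 and 59.1 in control replicates 1, 2 and 3. It had the largest log2 fold change of the 3 members classed as other, 1.34, SE 0.31 (limma adjusted p = 0.166).

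Trem2, the lipid and lipoprotein receptor of tissue and tumour macrophages, stood at 84.6, 133 and 61.7 normalized counts in anti-CD73 replicates 1, 2 and 3, against 74.1, 103 and 65.9 in control replicates 1, 2 and 3. The groups overlapped throughout, and control replicate 2 was above 2 of the 3 anti-CD73 libraries (log2 fold change 0.16, SE 0.32, limma adjusted p = 0.848; 0.11 without control replicate 1). Treml4, which is found on monocytes and macrophages, stood at 96.7, 91.1 and 51.4 normalized counts in anti-CD73 replicates 1, 2 and 3, against 101, 19.0 and 14.2 in control replicates 1, 2 and 3. Here control replicate 1 was the highest of all 6 libraries. Without it the log2 fold change of 1.31, SE 0.69 became 2.16, adjusted p = 0.00366. Treml1, a receptor of platelets, had at most 3 reads in any library.

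All 7 tested members of the CD300 family had a log2 fold change above 1, with a median of 1.25. Cd300lf, an inhibitory receptor for ceramide and phosphatidylserine, had the smallest p of all members and stood at 1801, 1994 and 1084 normalized counts in anti-CD73 replicates 1, 2 and 3, against 812, 694 and 513 in control replicates 1, 2 and 3. Every anti-CD73 library exceeded every control (log2 fold change 1.25, SE 0.26, limma adjusted p = 0.151). Cd300a, the other inhibitory member, stood at 579, 634 and 400.0 normalized counts in anti-CD73 replicates 1, 2 and 3, against 421, 200.2 and 119 in control replicates 1, 2 and 3. Control replicate 1 lay just inside the anti-CD73 range, so the groups overlapped (log2 fold change 1.29, SE 0.43, limma adjusted p = 0.229).

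Among the activating members, Cd300e, a Tyrobp-coupled receptor of monocytes, stood at 189.7, 178 and 108 normalized counts in anti-CD73 replicates 1, 2 and 3, against 169, 24.1 and 30.7 in control replicates 1, 2 and 3. Control replicate 1 was at the anti-CD73 level and control replicates 2 and 3 were far below it. The log2 fold change, the largest of the 36 members, was 1.60, SE 0.69 with all libraries and 2.46, adjusted p = 0.0017 without control replicate 1. Cd300ld, which couples to the Fc receptor gamma chain, stood at 414, 582 and 337 normalized counts in anti-CD73 replicates 1, 2 and 3, against 425, 151 and 111 in control replicates 1, 2 and 3. Cd300lb, a Tyrobp-coupled receptor, stood at 183, 178 and 113 normalized counts in anti-CD73 replicates 1, 2 and 3, against 142, 60.8 and 41.9 in control replicates 1, 2 and 3. Cd300c2 stood at 279.9, 344 and 198 normalized counts in anti-CD73 replicates 1, 2 and 3, against 203, 118 and 77.1 in control replicates 1, 2 and 3. In all 3 genes control replicate 1 lay inside the anti-CD73 range and the other controls lay under it, with log2 fold changes of 1.17, 1.10 and 1.12 (limma adjusted p = 0.303, 0.298 and 0.223). Of the remaining members, Cd300ld3 (log2 fold change 1.35, SE 0.68) was tested, while Cd300c, Cd300ld4, Cd300ld5 and Cd300lg had at most 10 reads in any library. Cd300lg, a receptor of capillary endothelium, had 10, 5 and 7 reads after anti-CD73 and 2, 2 and 3 in the controls, so its groups did not overlap, but it fell under the filter and was not tested.

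**Figure D3:**
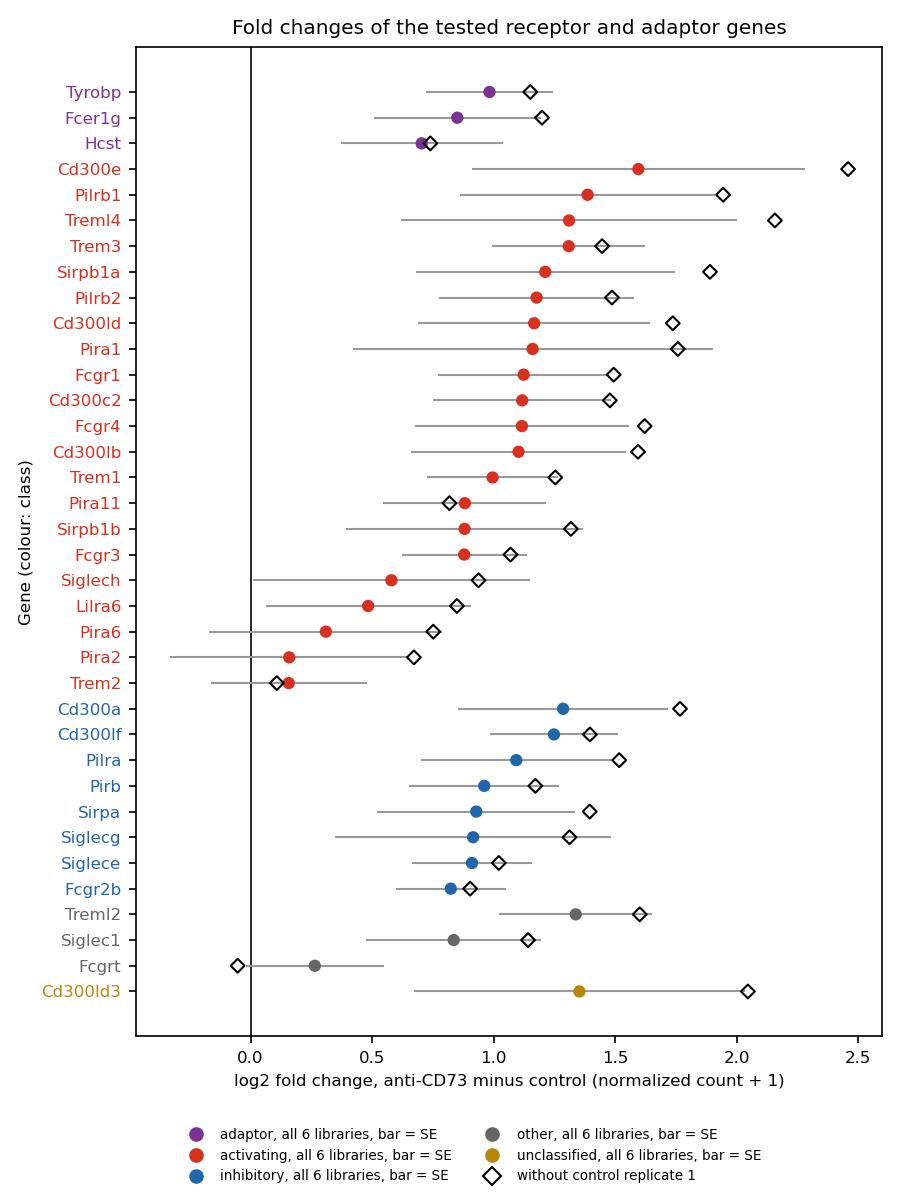
Log2 fold change (anti-CD73 minus control) of each tested gene, with its standard error as a bar, coloured by class, and as an open diamond the value without control replicate 1. All 36 points lie right of 0, from 0.16 for Trem2 to 1.60 for Cd300e, and the diamonds lie further right except for Trem2, Fcgrt and Pira11.

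The Siglecs bind sialic acid on other cells, and 4 of the 6 members passed the filter. Siglece, an inhibitory Siglec of neutrophils and monocytes, stood at 138, 166 and 99.7 normalized counts in anti-CD73 replicates 1, 2 and 3, against 81.2, 71.0 and 58.4 in control replicates 1, 2 and 3. All anti-CD73 libraries lay above all controls (log2 fold change 0.91, SE 0.25, limma adjusted p = 0.178). Siglec1, the adhesion receptor CD169 of macrophages, with no inhibitory motif, stood at 278, 499.7 and 290.0 normalized counts in anti-CD73 replicates 1, 2 and 3, against 293, 199 and 120.5 in control replicates 1, 2 and 3. Control replicate 1 lay at the lower end of the anti-CD73 range (log2 fold change 0.84, SE 0.36, limma adjusted p = 0.323). The plasmacytoid dendritic cell gene Siglech, coupled to Tyrobp, stood at 26.0, 23.3 and 7.20 normalized counts in anti-CD73 replicates 1, 2 and 3, against 18.3, 8.87 and 7.48 in control replicates 1, 2 and 3, and the B cell gene Siglecg at 22.3, 14.8 and 11.3 normalized counts in anti-CD73 replicates 1, 2 and 3, against 14.2, 10.1 and 2.99 in control replicates 1, 2 and 3. Both rested on few reads and overlapped between groups. Siglecf, a marker of eosinophils, had between 3 and 6 reads after anti-CD73 and between 1 and 5 in the controls. Siglec15, an osteoclast and macrophage gene, had 3, 3 and 10 reads after anti-CD73 and 0, 1 and 4 in the controls.

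Sirpa, the inhibitory receptor for Cd47, has activating relatives in Sirpb1a and Sirpb1b. Sirpa stood at 1442, 1906 and 1063 normalized counts in anti-CD73 replicates 1, 2 and 3, against 1435, 622 and 474 in control replicates 1, 2 and 3. Control replicate 1 was as high as anti-CD73 replicate 1, so the groups overlapped (log2 fold change 0.93, SE 0.41, limma adjusted p = 0.328; 1.40, adjusted p = 0.00393 without control replicate 1). Sirpb1a, which pairs with Tyrobp, stood at 152, 162 and 119 normalized counts in anti-CD73 replicates 1, 2 and 3, against 158, 39.3 and 36.7 in control replicates 1, 2 and 3 (log2 fold change 1.21, SE 0.53; 1.89, adjusted p = 0.00162 without control replicate 1). Sirpb1b stood at 62.3, 98.5 and 39.1 normalized counts in anti-CD73 replicates 1, 2 and 3, against 61.9, 30.4 and 19.5 in control replicates 1, 2 and 3 (log2 fold change 0.88, SE 0.49). Reads could be shared between these copies, so the split between Sirpb1a and Sirpb1b is uncertain.

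In the PILR family, the inhibitory Pilra stood at 259, 298 and 166 normalized counts in anti-CD73 replicates 1, 2 and 3, against 197, 88.7 and 74.1 in control replicates 1, 2 and 3 (log2 fold change 1.09, SE 0.39, limma adjusted p = 0.254). The activating Pilrb1 stood at 66.9, 78.4 and 39.1 normalized counts in anti-CD73 replicates 1, 2 and 3, against 48.7, 17.7 and 12.0 in control replicates 1, 2 and 3 (log2 fold change 1.39, SE 0.53), and Pilrb2 at 47.4, 72.0 and 36.0 normalized counts in anti-CD73 replicates 1, 2 and 3, against 33.5, 13.9 and 21.0 in control replicates 1, 2 and 3 (log2 fold change 1.18, SE 0.40). Of the 3, only Pilrb2 had groups that did not overlap. Pilrb1 and Pilrb2 are close copies whose reads may have been split between them.

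The PIR family bind MHC class I and are the mouse relatives of the human LILR genes. Pirb, its inhibitory member, stood at 764, 1066 and 519 normalized counts in anti-CD73 replicates 1, 2 and 3, against 516, 397 and 279 in control replicates 1, 2 and 3. Every anti-CD73 library exceeded every control, by a narrow margin over control replicate 1 (log2 fold change 0.96, SE 0.31, limma adjusted p = 0.217). The activating PIR-A genes rested on fewer reads. Pira11 stood at 66.0, 86.8 and 38.0 normalized counts in anti-CD73 replicates 1, 2 and 3, against 29.4, 38.0 and 29.9 in control replicates 1, 2 and 3 and Pira1 at 23.2, 18.0 and 11.3 normalized counts in anti-CD73 replicates 1, 2 and 3, against 17.3, 10.1 and 1.50 in control replicates 1, 2 and 3. In Pira11 the lowest anti-CD73 library and the highest control were level, and in Pira1 the groups overlapped, with log2 fold changes of 0.88, SE 0.34 for Pira11 and 1.16, SE 0.74 for Pira1. Pira2 stood at 21.4, 24.4 and 14.4 normalized counts in anti-CD73 replicates 1, 2 and 3, against 36.6, 12.7 and 11.2 in control replicates 1, 2 and 3, and Pira6 at 14.9, 15.9 and 13.4 normalized counts in anti-CD73 replicates 1, 2 and 3, against 22.3, 11.4 and 5.99 in control replicates 1, 2 and 3. Lilra6, listed in RefSeq also as Pira3, stood at 34.4, 33.9 and 24.7 normalized counts in anti-CD73 replicates 1, 2 and 3, against 36.6, 22.8 and 12.0 in control replicates 1, 2 and 3. For these 3 genes control replicate 1 was the highest library of all, and the log2 fold changes were 0.16 for Pira2, 0.31 for Pira6 and 0.48 for Lilra6, each smaller than or close to its SE of 0.49, 0.48 and 0.42.

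Of the PIR genes with a promoter window, only Pirb and Pira1, an inhibitory and an activating gene, were alike. Their windows are given here from the same RefSeq table on GRCm38.p6. They were equal at 292 of 300 bases (97.3%), and capitals mark the 8 bases that differ. Compared position by position without gaps, the other pairs among Pirb, Pira1, Pira2 and Lilra6 were equal at 21.3 to 27.3% of bases.
Pirb, chr7:3720333-3720632, minus strand: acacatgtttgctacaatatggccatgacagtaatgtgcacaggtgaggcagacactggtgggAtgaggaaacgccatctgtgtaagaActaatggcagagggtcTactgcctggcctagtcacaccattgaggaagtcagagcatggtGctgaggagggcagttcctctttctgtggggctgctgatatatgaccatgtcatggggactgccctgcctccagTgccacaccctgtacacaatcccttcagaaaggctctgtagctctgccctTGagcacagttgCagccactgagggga
Pira1, chr7:3739868-3740167, minus strand: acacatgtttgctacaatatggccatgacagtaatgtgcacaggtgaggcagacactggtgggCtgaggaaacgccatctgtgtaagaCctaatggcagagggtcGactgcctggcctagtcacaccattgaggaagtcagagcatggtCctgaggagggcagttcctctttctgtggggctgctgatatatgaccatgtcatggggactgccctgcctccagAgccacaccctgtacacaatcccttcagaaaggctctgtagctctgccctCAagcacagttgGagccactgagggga

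How reads with several matches were treated is not stated, so levels of single PIR genes are uncertain. Lilrb4a, an inhibitory receptor of myeloid cells also known as gp49B, had 0 reads in all 6 libraries. A count of 0 allows up to 3 reads per library, or 2.79, 3.18 and 3.08 normalized counts in anti-CD73 replicates 1, 2 and 3 and 3.05, 3.80 and 2.25 in the controls, for counting error only. Its neighbour Lilr4b, a like copy on the same chromosome in RefSeq, is not analysed here, and whether shared reads were dropped was not tested. Lilra5, an activating member, had 5, 8 and 2 reads after anti-CD73 and 7, 0 and 1 in the controls.

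Set side by side, activating members had a median log2 fold change of 1.12 (21 genes, from 0.16 to 1.60) and inhibitory members one of 0.94 (8 genes, from 0.82 to 1.29). The 3 adaptors had a median of 0.85. Without control replicate 1, limma called 14 of 21 activating and 7 of 8 inhibitory members, all higher, against 11.9% of all genes called higher, and the medians were 1.48 and 1.35. Groups did not overlap, with anti-CD73 higher, for 5 of 21 activating and 4 of 8 inhibitory members, against 11.5% of all genes. Whether the classes differ from each other was not tested, and the spread among activating members was wider than the gap between the medians.

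In the ratio of activating to inhibitory counts, the groups overlapped for every pair or family compared except the PIR family. These ratios compare counts, not molecules, as transcript lengths were not used, so only their change between libraries is read. The IgG Fc receptors, with Fcgr1, Fcgr3 and Fcgr4 over Fcgr2b, gave ratios of 4.62, 4.17 and 3.97 in anti-CD73 replicates 1, 2 and 3, against 5.28, 2.81 and 3.31 in control replicates 1, 2 and 3. Control replicate 1 had the highest ratio and control replicates 2 and 3 the lowest, so the groups overlapped. On the log2 scale the means were 2.08 ± 0.11 after anti-CD73 and 1.87 ± 0.47 in controls (SD, n = 3 each), a difference of 0.22 (0.48 without control replicate 1). Within this group Fcgr1 over Fcgr2b gave 2.36, 2.14 and 2.04 in anti-CD73 replicates 1, 2 and 3, against 2.65, 1.38 and 1.52 in control replicates 1, 2 and 3. Fcgr3 over Fcgr2b gave 1.31, 1.14 and 1.12 in anti-CD73 replicates 1, 2 and 3, against 1.34, 1.00 and 1.12 in control replicates 1, 2 and 3, and Fcgr4 over Fcgr2b 0.960, 0.887 and 0.800 in anti-CD73 replicates 1, 2 and 3, against 1.30, 0.424 and 0.673 in control replicates 1, 2 and 3. In all 3 ratios control replicate 1 was the highest and control replicate 2 the lowest library.

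In the PIR family the ratio of the 5 activating genes to Pirb was lower in every anti-CD73 library than in any control, at 0.209, 0.168 and 0.196 in anti-CD73 replicates 1, 2 and 3, against 0.276, 0.240 and 0.217 in control replicates 1, 2 and 3. The log2 means were -2.39 ± 0.16 after anti-CD73 and -2.03 ± 0.17 in controls (SD, n = 3 each), a difference of -0.36, and it ranged from -0.43 to -0.27 with each library left out in turn. This ratio was not tested, and it rests on genes that may share reads. It is the only separated one of several ratios looked at. Among single genes, 12% of all tested genes lay below all controls without overlap. The PILR ratios were 0.441, 0.505 and 0.453 in anti-CD73 replicates 1, 2 and 3, against 0.418, 0.357 and 0.444 in control replicates 1, 2 and 3, the SIRP ratios 0.149, 0.137 and 0.149 in anti-CD73 replicates 1, 2 and 3, against 0.154, 0.112 and 0.118 in control replicates 1, 2 and 3 and the CD300 ratios 0.448, 0.488 and 0.510 in anti-CD73 replicates 1, 2 and 3, against 0.761, 0.395 and 0.412 in control replicates 1, 2 and 3. In these 3 families the groups overlapped, with log2 differences of 0.19, 0.18 and -0.052. For CD300, control replicate 1 alone was far above the rest, and the difference without it was 0.25. The Siglec ratio, of Siglech and Siglec15 over Siglece, Siglecf and Siglecg, also overlapped (log2 difference -0.039), on few activating reads.

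**Figure D4:**
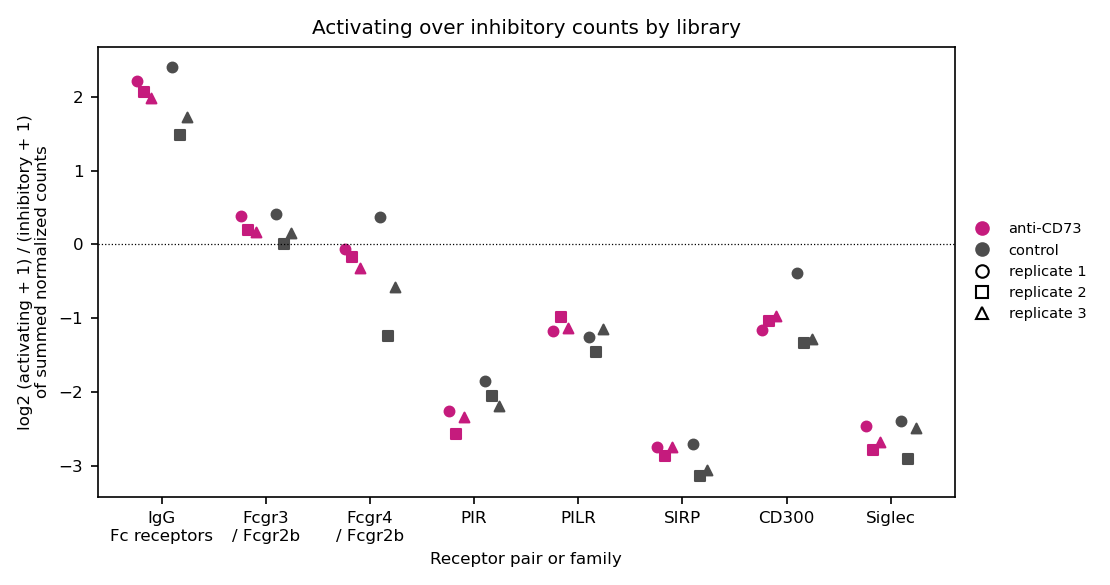
The log2 ratio of summed activating to summed inhibitory normalized counts, each with 1 added, in every library of both groups; marker shape gives the replicate. The PIR family is the one whose anti-CD73 points, at -2.57 to -2.25, all lie under its control points, at -2.18 to -1.85.

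Control replicate 1 divided the members. For 13 of the 36 tested members it lay under the anti-CD73 range, for 19 inside it and for 4 above it. The 4 above were Treml4, Pira2, Pira6 and Lilra6. In Fcgrt, Pira11 and Trem2 it lay below the mean of control replicates 2 and 3, by -0.95, -0.19 and -0.15 on the log2 scale. In Hcst, Fcgr2b, Siglece, Trem3, Cd300lf and Tyrobp it lay 0.11, 0.24, 0.33, 0.41, 0.44 and 0.50 above that mean. At the other end, it lay 2.59 above it in Cd300e, 2.54 in Treml4 and 2.08 in Cd300ld3. By class, the median of this gap was 1.31 for activating, 0.91 for inhibitory and 0.50 for adaptor genes. Among tested genes of the marker lists, the same gap had a median of 0.70 for macrophage and monocyte genes. It was -0.18 for neutrophil, 2.20 for T cell, 2.55 for mast cell and basophil and -3.08 for erythroid genes. Dendritic cell genes had 0.98, plasmacytoid dendritic cell genes 0.52, endothelial genes 1.50, NK cell genes 1.16 and B cell genes 0.84. Platelet genes had -0.81, epithelial tumour genes -1.12 and the only tested eosinophil gene 3.02. The part of these cell types in the receptor values was not tested.

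**Figure D5:**
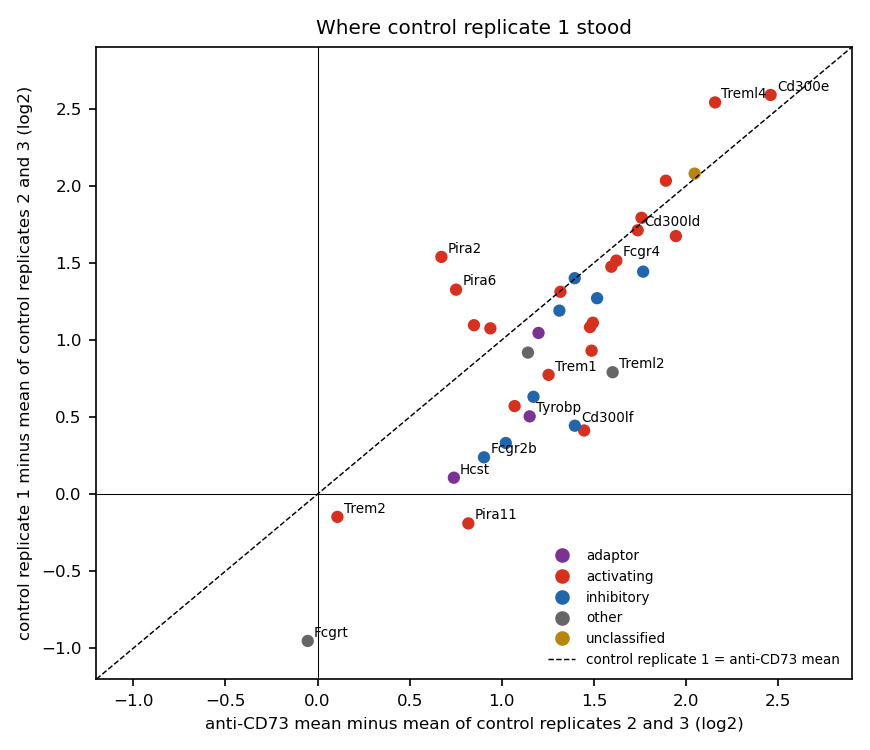
For each tested gene, the gap between control replicate 1 and the mean of control replicates 2 and 3 is plotted against the gap between the anti-CD73 mean and the same 2 controls, in log2 units; on the dashed line control replicate 1 equals the anti-CD73 mean. Cd300e, at 2.59, sits just above the line, whereas Tyrobp, at 0.50, sits below it.

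Divided by the summed counts of the 14 macrophage and monocyte genes of the same library, the members' groups lay closer together. The median fold of the group means was 1.19 after division, against 1.93 before, and the summed macrophage list was itself 1.65-fold higher after anti-CD73. After division, 7 of the 36 tested members had every anti-CD73 library above all controls, against 1.44% of all tested genes divided likewise, 1 lay below, against 31.2%, and 28 overlapped. The 7 were Cd300lf (1.41-fold), Cd300a (1.41), Treml2 (1.52), Fcgr1 (1.29), Cd300c2 (1.29), Trem1 (1.20) and Tyrobp (1.18). Of these 7, Cd300a, Fcgr1 and Cd300c2 had overlapping groups before division. The 1 below was Pira2 (0.645). Trem2 (0.643) and Fcgrt (0.625) had folds under 1 with groups that overlapped. The summed neutrophil list was 1.76-fold higher after anti-CD73, and division by it left a median fold of 1.03, or 1.62 without control replicate 1. After that division 0 of the 36 members lay above all controls, against 0.334% of all genes, 35 overlapped, and 1, Trem2 (0.645), lay below, against 50.7%. All 7 genes named above overlapped, among them Tyrobp at 1.10-fold, Trem1 at 1.09-fold and Fcgr1 at 1.12-fold. Both divisors were higher after anti-CD73, so division lowers every gene there relative to the controls. The shares of all genes shift with it: before division 11.5% lay above all controls and 12% below. Set beside these shares, the member counts cannot show whether members rise beyond the lists. These ratios are a description, with no test.

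The signalling genes behind the receptors lay higher as well. Of the 22 genes listed for ITAM signalling, which include the restraining genes Dok3 and Cblb, 20 lay higher and 2 lower, 0 passed by limma, and groups did not overlap for 8, all higher, against 11.5% of all genes. Their median log2 fold change was 0.78, against 0.0039 for all genes. Syk, the kinase that binds the phosphorylated ITAM, stood at 2557, 2720.0 and 1944 normalized counts in anti-CD73 replicates 1, 2 and 3, against 1751, 1391 and 1103 in control replicates 1, 2 and 3. Its groups did not overlap (log2 fold change 0.78, SE 0.20, limma adjusted p = 0.177). Among the genes of this list with the smallest p were Vav1, a guanine nucleotide exchange factor, with a log2 fold change of 0.51, SE 0.11, and Fgr, a Src-family kinase of myeloid cells, with one of 1.26, SE 0.31. Vav1 stood at 1215, 1215 and 1212 normalized counts in anti-CD73 replicates 1, 2 and 3, against 925, 792 and 852 in control replicates 1, 2 and 3, with nearly equal anti-CD73 values. Without control replicate 1, 17 of the 22 passed, all higher, against 11.9% of all genes called higher.

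Of the 9 genes listed for ITIM signalling, 8 lay higher and 1 lower, 0 passed, 5 had all anti-CD73 libraries above all controls, against 11.5% of all genes, and the median was 0.38. Ptpn6, the phosphatase SHP1, stood at 1518, 1656 and 1119 normalized counts in anti-CD73 replicates 1, 2 and 3, against 743, 684 and 742 in control replicates 1, 2 and 3. All controls were close together and under every anti-CD73 library (log2 fold change 0.97, SE 0.16, limma adjusted p = 0.141, which is the smallest adjusted p of any gene and is shared by others). Inpp5d, the inositol phosphatase SHIP1, stood at 2169, 2154 and 1726 normalized counts in anti-CD73 replicates 1, 2 and 3, against 1672, 1205 and 1273 in control replicates 1, 2 and 3 (log2 fold change 0.55, SE 0.16, limma adjusted p = 0.195), with groups apart. Dok2, an adaptor that dampens kinase signals, had a log2 fold change of 0.85, SE 0.28. The more widely expressed phosphatase gene Ptpn11 had 0.027, SE 0.10. Without control replicate 1, 4 passed as higher, against 11.9% of all genes, and 1, Dok1, as lower, against 10.3%.

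The ligands showed no common direction, with 6 of 11 higher, 5 lower and a median log2 fold change of 0.09. Cd47, the ligand of Sirpa on most cells, stood at 3417, 3622 and 3387 normalized counts in anti-CD73 replicates 1, 2 and 3, against 3904, 3760.5 and 3419 in control replicates 1, 2 and 3, and its groups overlapped (log2 fold change -0.087, SE 0.10, limma adjusted p = 0.727). The ligand genes with the smallest p were Fn1 (1.45, SE 0.23), which encodes fibronectin, Angptl2 (-0.63, SE 0.16), a secreted protein that binds human LILRB2 and mouse Pirb, and Hmgb1 (-0.41, SE 0.18), none of which passed (limma adjusted p = 0.141, 0.178 and 0.327). Fn1 stood at 870.3, 1108 and 593 normalized counts in anti-CD73 replicates 1, 2 and 3, against 316, 334 and 266 in control replicates 1, 2 and 3. All anti-CD73 libraries lay above all controls for Fn1, as for 11.5% of all genes. For Angptl2 and Hmgb1 they lay below all controls, as for 12% of all genes. Of 10 immunoglobulin constant chain and joining chain genes listed, 1, Jchain, was analysed here and had at most 10 reads in a library, so the antibody ligands of the Fc receptors could not be followed.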

How the data were processed

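RNA-seq values of 6 tumour libraries were read from 1 deposited table with a column per library. The authors' deposited values are a per-gene signal, called normalized counts here; their steps are those of read counts divided by 1 factor per library. Bowtie 0.12.7 and mm10 are named in the submitters' processing notes, with no role given, and the handling of multiply matching reads is not stated. Whole reads were recovered from the steps of the values: 100% came out whole within 0.01. Library totals were 13172235, 11618374 and 11997759 reads for anti-CD73 and 12809666, 10180624 and 17161679 for controls. Groups came from the sample labels.

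Genes with a mean of at least 10 normalized counts were tested on log2(value + 1) with limma 3.58.1 (R 4.3.3), anti-CD73 minus control, with Benjamini-Hochberg adjustment over all 12262 of them and a threshold of 0.05. edgeR 4.0.16 and DESeq2 1.42.0 on the recovered reads were alternatives, as were other pseudocounts and filters, quantile scaling, a replicate block and leaving out each library. The limma step was tested on simulated data in which no library was made to stand apart. That test therefore does not cover the effect of control replicate 1.

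The members, classes, pairs and gene lists were chosen with earlier results of these data known. Values per library are given for adaptors, Fc receptors, members of pairs and the 8 members with the smallest p. The 3 genes of smallest p in each signalling or ligand list were named, except 1 that is not reported here, plus Syk, Ptpn6, Inpp5d and Cd47; others were named after their values were seen. Floors of 3 reads cover counting error only.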

Additional observations from a re-analysis of the deposited data

How the results depend on the processing

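Counts of calls moved with the test and with control replicate 1. DESeq2 called 595 of the 11780 genes given an adjusted p, with 8 members (3 activating, 3 inhibitory and 1 adaptor), 7 ITAM, 1 ITIM and 2 ligand genes. Without control replicate 1, limma called 2724 of 12262 genes, 11.9% of all genes as higher and 10.3% as lower. Among them were 26 of 36 members (14, 7 and 2), all higher, 17 of 22 ITAM and 5 of 9 ITIM genes. Of the 11 ligand genes 4 were called, 2 of them as higher. Without that library, edgeR called 2703 genes and DESeq2 2679, each with the same 26 members, 17 ITAM, 6 ITIM and 4 ligand genes. Leaving out each library in turn gave 0 to 2724 genes, 0 to 26 members, 0 to 14 activating, 0 to 7 inhibitory, 0 to 2 adaptor, 0 to 17 ITAM, 0 to 5 ITIM and 0 to 4 ligand calls. The members' median log2 fold change was between 0.74, with control replicate 3 left out, and 1.36, with control replicate 1 left out.

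Replicate numbers were also used as a block. With the number in the sample title it called 0 genes and 0 members, and correlations of same-numbered deviations were 0.19, -0.096 and 0.26, so the numbers were not taken as pairs. With the number in the sample description, a replicate block called 1780 of the 12262 tested genes. Among them were 25 of 36 members (14, 7 and 2), 15 of 22 ITAM, 4 of 9 ITIM and 5 of 11 ligand genes. By construction, however, this block leaves out control replicate 1 and anti-CD73 replicate 2.

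Among the tested members, Nt5e and the named signalling and ligand genes, directions reversed under some setting for Fcgrt, Pira2, Pira6, Trem2, Nt5e and Dok1. Fcgrt was at -0.19 with the description block, and without control replicate 1 at -0.053 by limma, -0.025 by edgeR and -0.023 by DESeq2; with each library left out it reached at most 0.42. Pira2 was at -0.12 with quantile scaling, -0.057 without control replicate 2 and -0.14 without control replicate 3, and at most 0.67 with a library left out. Pira6 was at -0.030 with quantile scaling and -0.12 without control replicate 3, and at most 0.75. Trem2 was at -0.18 with the description block and -0.13 without anti-CD73 replicate 2, and at most 0.42 with a library left out. Dok1 was at 0.020 without control replicate 2, and at its lowest, without control replicate 1, at -0.66. Nt5e was at -0.11 with quantile scaling, -0.14 without anti-CD73 replicate 1 and -0.087 without control replicate 2, and at most 0.27. The cause of these reversals was not tested. Members under the filter of a mean of 10 normalized counts were not tested, so no difference was assessed for them.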
